A study of Mus musculus with 25 samples.

Results

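The regions described here are those in which H3K79me3, trimethylation of lysine 79 of histone H3, was still called in mouse embryonic stem cells (mESCs) that lack Dot1L. All peaks of the 2 knockout (KO) H3K79me3 lists were merged where they overlapped by at least 1 bp. The 178 peaks of KO replicate 1 and the 328 peaks of KO replicate 2 gave 439 regions, out of 158590 peaks in all 8 lists of the series. Of these regions, 63 were found in both KO lists, 111 in the list of replicate 1 alone and 265 in the list of replicate 2 alone. The members were selected on the KO H3K79me3 calls themselves, so their KO values are given as a description, without a test.

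All groups used were mESCs of the v6.5 line without treatment, either wild type or with the genotype Dot1L KO. Chromatin immunoprecipitation (ChIP) with antibody ab2621 against H3K79me3 and ab3594 against H3K79me2 gave 1 peak list per library, 2 libraries per genotype and mark. RNA depleted of ribosomal RNA was sequenced from 3 wild-type (WT) and 2 KO libraries. The sources used here do not say which part of Dot1l was deleted, how many clones were used, or whether replicates were separate cultures, so the spread between them may be technical.

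Dot1L is the enzyme known to place methyl groups on lysine 79, a residue on the outer face of the nucleosome core rather than on a histone tail. It acts on nucleosomes that carry ubiquitin on histone H2B and travels with factors of transcription elongation, and its marks are known for lying over the first part of transcribed genes. A list called in cells without the enzyme therefore shows where the assay still returned enrichment. ChIP enrichment here is the fold of a peak over the caller's own background, as the authors deposited it.

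RNA checked the labels first. Dot1l stood at 104, 96.9 and 99.2 CPM (counts scaled to a library total adjusted by TMM) in WT and at 81.4 and 71.5 CPM in KO. Both KO libraries were below the 3 WT libraries, with a log2 fold change of −0.39 (SE 0.06, edgeR adjusted p = 1.61e-04), so transcripts of the gene remained. Of the complex genes Dot1l, Mllt10, Mllt3, Mllt1, Mllt6, Aff1 and Aff4, 5 of 7 were called lower and 1 higher. Over all 19532 genes tested, 21.6% were called lower and 22.3% higher. Markers of embryonic stem cells summed to between 3151 and 3203 CPM in WT and between 2699 and 2856 CPM in KO, and Pou5f1, Nanog and Sox2 were all expressed. Fibroblast markers, which feeder cells would bring, summed to 153 to 195 CPM in WT and 195 to 243 CPM in KO. Of these, 3 of 6 tested were called higher, beside the 22.3% of all genes. Primitive endoderm markers summed to 11.3 to 12.6 and 18.7 to 20.8 CPM, and trophectoderm markers to 106 to 113 and 93.2 to 94.3 CPM. Their part in the results below was not tested. Library totals were 26860527 to 33755064 estimated counts, and the depth of the ChIP libraries is unknown.

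A subset of the regions reached the start of a gene, and their sequences are shown because they share a property that the calls did not use. RefSeq windows of 300 bases on GRCm38.p6, with 250 bases before and 50 after a start site, were overlapped by 20 of 433 regions (4.62%, Wilson 95% interval 3.01 to 7.03%). Regions on the chromosome for which the table holds no window were left out, and it does not hold every start. The same windows were overlapped by 3.52% of the peaks of WT replicate 1 and 1.87% of those of WT replicate 2. The 20 regions touched 24 windows of 22 genes, all matched by position. Capitals below mark the dinucleotide CG, which reads the same on both strands, so every window is printed 5′ to 3′ along its gene's strand.

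The first 3 windows lay under regions found in both KO lists. Rasd2 encodes a small GTPase of the Ras family, Gm33272 is a long noncoding RNA on chromosome Y, and Vmn2r29 encodes a vomeronasal receptor. Wnt7a, a secreted signalling protein, and Ptch1, the receptor of hedgehog ligands, are examples from the regions of KO replicate 2 alone. Their windows held 42 and 47 CG, above the median of 35.5 for the 24 windows, so they do not represent that class. The Gm41331 window, of a noncoding RNA, had the fewest CG. Coordinates follow the name.
Rasd2, chr8:75213694-75213993, plus strand: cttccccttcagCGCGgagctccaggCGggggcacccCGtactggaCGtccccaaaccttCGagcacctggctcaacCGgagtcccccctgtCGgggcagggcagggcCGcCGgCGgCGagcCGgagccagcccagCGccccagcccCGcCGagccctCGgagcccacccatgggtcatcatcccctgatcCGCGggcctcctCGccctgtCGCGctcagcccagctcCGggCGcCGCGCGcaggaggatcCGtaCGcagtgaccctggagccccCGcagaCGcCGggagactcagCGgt
Gm33272, chrY:90793437-90793736, plus strand: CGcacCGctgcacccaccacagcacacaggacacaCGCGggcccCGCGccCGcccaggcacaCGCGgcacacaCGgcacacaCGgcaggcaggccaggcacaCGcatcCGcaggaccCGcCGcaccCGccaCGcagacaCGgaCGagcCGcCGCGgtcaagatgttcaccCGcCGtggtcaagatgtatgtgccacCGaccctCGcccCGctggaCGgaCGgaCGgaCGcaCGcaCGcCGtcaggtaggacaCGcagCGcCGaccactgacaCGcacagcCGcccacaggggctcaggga
Vmn2r29, chr7:7278240-7278539, minus strand: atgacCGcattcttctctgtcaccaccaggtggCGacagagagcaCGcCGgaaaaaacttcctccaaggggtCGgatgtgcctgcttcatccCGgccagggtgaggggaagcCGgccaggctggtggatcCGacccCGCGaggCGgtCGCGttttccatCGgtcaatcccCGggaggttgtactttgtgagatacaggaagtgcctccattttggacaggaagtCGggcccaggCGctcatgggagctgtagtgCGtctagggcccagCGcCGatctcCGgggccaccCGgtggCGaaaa
Wnt7a, chr6:91411304-91411603, minus strand: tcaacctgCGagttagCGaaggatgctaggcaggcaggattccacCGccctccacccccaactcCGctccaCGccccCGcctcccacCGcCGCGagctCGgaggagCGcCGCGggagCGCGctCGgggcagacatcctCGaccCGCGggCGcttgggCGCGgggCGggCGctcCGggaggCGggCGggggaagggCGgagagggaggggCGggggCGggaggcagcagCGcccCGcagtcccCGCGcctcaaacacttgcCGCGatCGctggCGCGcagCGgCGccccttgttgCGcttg
Ptch1, chr13:63565686-63565985, minus strand: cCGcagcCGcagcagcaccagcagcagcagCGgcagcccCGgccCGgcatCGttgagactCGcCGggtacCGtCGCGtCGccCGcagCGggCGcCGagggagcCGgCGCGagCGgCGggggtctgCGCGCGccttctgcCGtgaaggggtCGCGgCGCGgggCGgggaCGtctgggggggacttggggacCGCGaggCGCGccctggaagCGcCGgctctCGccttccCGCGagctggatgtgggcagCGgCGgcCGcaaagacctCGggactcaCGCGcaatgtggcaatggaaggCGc
Gm41331, chr15:60141576-60141875, plus strand: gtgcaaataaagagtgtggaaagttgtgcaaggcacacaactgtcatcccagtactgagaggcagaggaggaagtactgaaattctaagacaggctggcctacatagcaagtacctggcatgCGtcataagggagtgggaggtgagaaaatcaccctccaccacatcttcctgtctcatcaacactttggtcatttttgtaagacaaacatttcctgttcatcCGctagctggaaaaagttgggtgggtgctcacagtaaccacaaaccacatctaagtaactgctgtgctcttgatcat
The region covered 298 bases of the Rasd2 window, all 300 of the Gm33272 window and 94 of the Vmn2r29 window. It covered 152 bases at Wnt7a, 174 at Ptch1 and 90 at Gm41331.

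The windows under the regions were rich in CG. They held a median of 35.5 CG, from 2 to 53, against a median of 7 over all 32817 windows. Of the 24 windows, 22 (91.7%) held at least 20 CG, a count reached by 26.5% of all windows. At least 1 CG was present in 94.6% of all windows, so its mere presence says little. Windows under WT H3K79me3 peaks held a median of 31 CG for replicate 1 and 28 for replicate 2, and 76.4% and 65.5% of them reached 20. Windows under WT H3K79me2 peaks held 15 and 13 at the median, with 44.7% and 41.1% reaching 20. The exceptions among the members were both windows of Gm41331, with 2 and 3 CG. CG content was thus high in start windows that members or WT H3K79me3 peaks touched, and lower in those that H3K79me2 peaks touched. Whole windows were counted, even where the overlap was as small as 2 bases, at Nbl1. The sequence of regions away from start windows was not examined. These are descriptions of sequence over few windows, and neighbouring windows of 1 gene overlap.

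**Figure D1:**
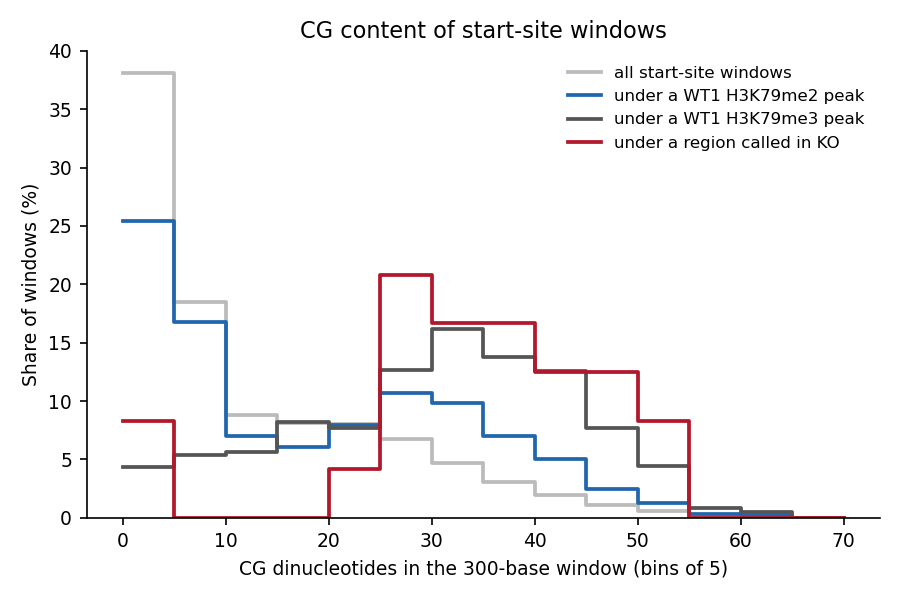
The plot shows the share of 300-base start-site windows (vertical axis, %) by their number of CG dinucleotides (horizontal axis, bins of 5), for all windows, windows under WT replicate 1 peaks of each mark, and the 24 windows under a region called in KO. The line of the KO regions lies mostly at 25 CG and above, whereas that of all windows is highest under 5 CG.

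Most of the regions were short. Their length ran from 176 to 2752 bp with a median of 234 bp. Enrichment over the regions had a median of 4.14-fold in KO replicate 1 (n = 174, from 1.74 to 8.41) and of 4.45-fold in KO replicate 2 (n = 328, from 1.56 to 8.58). The −log10 q of the deposited peaks began at 1.46 in replicate 1 and 1.53 in replicate 2, with medians of 5.42 and 4.22. The member just inside the threshold lay on chromosome Y from 90813589 to 90813928, with 2.19-fold and a −log10 q of 1.46 in KO replicate 1. Values just outside it were not analysed here, because the lists hold called peaks. Identical pairs of enrichment and q recurred, and the most frequent pair, 4.89-fold with a −log10 q of 4.22, was shared by 17 of the 328 peaks of KO replicate 2.

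Agreement between the KO lists was higher among peaks of high −log10 q, while regions of both lists had lower enrichment than regions of 1 list. Of the peaks of KO replicate 1, 37.6% (Wilson 95% interval 30.9 to 44.9%) overlapped the other KO list, and of those of replicate 2, 19.2% (15.3 to 23.8%) did. Among peaks with a −log10 q of at least 10 the shares were 64.9% (48.8 to 78.2%) and 67.3% (53.4 to 78.8%). In regions of both KO lists, median enrichment was 3.14-fold in KO replicate 1 and 3.60-fold in replicate 2. In regions of 1 KO list it was 4.56 and 4.58-fold. Median length was 417 bp and 222 bp, in the same order. The intervals reflect counting error alone, while peaks beside each other may share a source.

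Nearly all regions lay where WT cells also had an H3K79me3 peak. The list of WT replicate 1 covered 384 of the 439 regions (87.5%, Wilson 95% interval 84.0 to 90.2%) and that of replicate 2 covered 256 (58.3%, 53.6 to 62.8%). All 63 regions of both KO lists overlapped the first WT list and 61 of them the second. Another 44 regions had no WT H3K79me3 peak, all of them found in a single KO list. Seen from the WT side, only 1.79% of the 19800 peaks of replicate 1 and 3.16% of the 7338 peaks of replicate 2 overlapped a region. That share was 26.0% and 28.0% among the 100 WT peaks of highest −log10 q, 12.2% and 7.67% among those ranked 101 to 1000, and 0.743% and 1.45% beyond rank 5000.

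At the median, the peak values taken for the regions were somewhat lower in KO than in WT. In the 61 regions with a value in all 4 lists, the medians were 3.13 and 3.60-fold in KO and 4.24 and 4.04-fold in WT. The ratio of the KO mean to the WT mean had a median of 0.804 there, and in 4 of the 61 both KO values were above both WT values. Over the 395 regions with any WT peak, the highest KO value was above the highest WT value in 149 (37.7%). That measure favours WT, since 376 of the 439 regions had 1 KO list alone and 245 had both WT lists. Against 1 WT list, the highest KO value was above in 41.9% for WT replicate 1 and 43.0% for replicate 2. Among regions not within 100 kb of another, these shares were 50.4% and 47.2%. A region took the highest overlapping peak of each list. WT peaks over a region had median lengths of 602 and 432 bp, against 234 bp for the regions. A WT value could therefore come from outside the region, and 1 WT peak could serve several regions. The lists were also called separately and each fold is relative to its own library, so these ratios are no measure of how much of the mark remained.

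**Figure D2:**
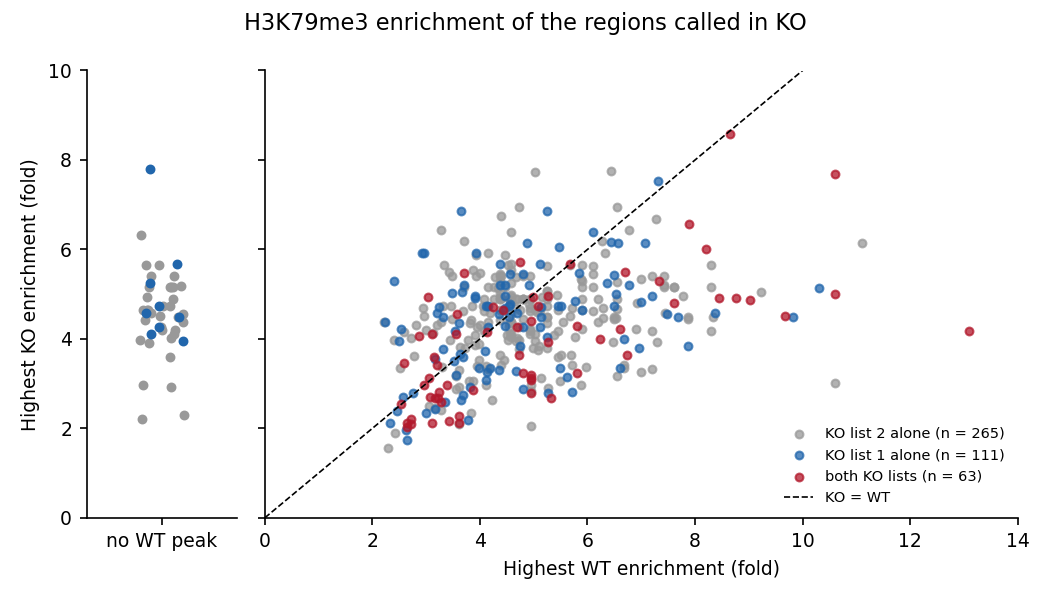
Each point is 1 of the 439 regions, with its highest KO enrichment (vertical axis, fold) against its highest WT enrichment (horizontal axis, fold), coloured by the KO list that holds it. The panel at the left holds the 44 regions without a WT H3K79me3 peak, and the dashed line marks equal values.

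H3K79me2, the mark that Dot1L places over transcribed genes, was mostly not called at these sites in WT. Only 21 of the 439 regions (4.78%, Wilson 95% interval 3.15 to 7.20%) overlapped a peak of either WT H3K79me2 list, and 16 of the 21 lay in a gene body. Of the WT H3K79me3 peaks over no region, 42.5% (41.8 to 43.2%) in replicate 1 and 59.0% (57.8 to 60.1%) in replicate 2 overlapped a WT H3K79me2 peak. Of the WT H3K79me3 peaks over a region, 7.61% (5.28 to 10.8%) and 11.2% (7.76 to 15.9%) did. The KO H3K79me2 lists hold only 16 and 12 peaks, so few overlaps with them were possible. It was 0 of 439 regions, for which 3 counts, taken as the limit of a count of 0, give up to 0.683%. The WT calls were not used to choose the members, although both genotypes' lists share whatever the assay calls in every sample.

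The difference was also present among peaks of like rank and like length. Among the 1000 highest-ranked WT H3K79me3 peaks of replicate 1, 24 of 136 over a region (17.6%, Wilson 95% interval 12.2 to 24.9%) and 719 of 864 over none (83.2%, 80.6 to 85.6%) overlapped H3K79me2. In replicate 2 these shares were 18.6% (12.1 to 27.4%) and 88.6% (86.4 to 90.5%). At a length of 301 to 600 bp they were 1.85% and 41.0% in replicate 1, and 8.43% and 60.0% in replicate 2. In each of the 12 bands of rank or length examined, peaks over a region had the lower share, and the intervals did not overlap. The bands of rank and of length divide the same peaks, and the WT lists overlap each other, so the bands are not independent. Their intervals reflect counting error alone, and no test was made.

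Among regions with H3K79me2 in WT, that of Zfp445 was named for its KO H3K79me3 in both lists, and Ptch1 and Sfrp1 were added after their values were seen. On chromosome 9 from 122861687 to 122862081, inside Zfp445, a zinc-finger gene, H3K79me3 stood at 5.49 and 5.41-fold in KO and at 6.70 and 6.10-fold in WT. H3K79me2 stood there at 4.13 and 5.56-fold in the WT libraries. The region under the Ptch1 start had 4.27-fold in KO replicate 2, 3.18 and 4.54-fold in WT, and H3K79me2 of 4.29 and 3.72-fold. A region inside Sfrp1, which encodes a secreted Wnt inhibitor, had 3.65-fold in KO replicate 2, 5.51 and 5.03-fold in WT, and H3K79me2 of 7.22 and 6.71-fold.

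**Figure D3:**
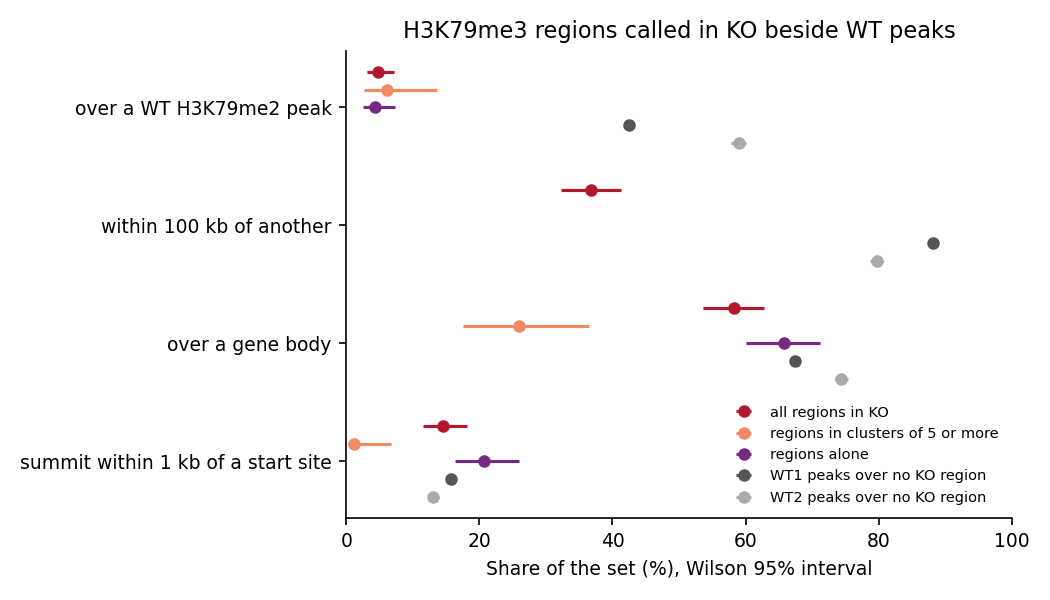
Points give the share of each set (horizontal axis, %) with Wilson 95% intervals for 4 features, for all regions called in KO, for regions in clusters of 5 or more, for regions alone, and for the peaks of each WT H3K79me3 list over no region. Closeness to another region is not drawn for the sets that it defines. The WT peaks lie at 42.5% and 59.0% for overlap with H3K79me2, against 4.78% for the KO regions.

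Regions recurred in clusters. Of the 439, 161 (36.7%, Wilson 95% interval 32.3 to 41.3%) lay within 100 kb of another and formed 39 clusters, of which 7 held at least 5 regions and 81 regions in all. With KO peaks merged within 1 kb this share was 23.4%, since 96 regions lay within 1 kb of another. The measure without such merging gave 88.2% and 79.6% for the far more numerous WT H3K79me3 peaks. The clusters of at least 5 held 40 of the 63 regions found in both KO lists, and 53 of the 63 lay in some cluster. By contrast, 10 of the 278 regions that stood alone were in both lists. Every region in the 7 clusters overlapped a WT H3K79me3 peak, and 79 of 81 overlapped both WT lists. Gene bodies covered 25.9% of them (17.6 to 36.4%), against 65.8% (60.1 to 71.2%) of the regions alone.

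The largest cluster lay on chromosome Y from 90718579 to 90825434, at the end of the assembled chromosome that pairs with X. Its 32 regions included 16 found in both KO lists, and all 32 overlapped both WT lists. Over its regions, the median of the highest overlapping peak was 3.33 and 4.03-fold in KO and 4.08 and 3.74-fold in WT. The cluster's span held 26 and 24 KO peaks and 59 and 52 WT peaks, and WT peaks outside the regions did not enter these medians. Its highest member, from 90737871 to 90740622, had 8.41 and 8.58-fold in KO and 7.92 and 8.65-fold in WT, so the KO values lay within the range of WT. It was also the longest of all regions and had the highest −log10 q in KO, 55.2 and 56.2. The nearest gene, Gm52481, was 2106 bp away. The region over the Gm33272 start had 6.56 and 4.64-fold in KO and 7.89 and 6.03-fold in WT.

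A cluster of 10 regions lay on chromosome X from 169984325 to 170022275, over Mid1, which encodes a ubiquitin ligase bound to microtubules, and Erdr1. This is the stretch that X and Y share, and reads there cannot be assigned to 1 chromosome with certainty. Median enrichment was 3.34 and 3.07-fold in KO and 5.26 and 4.58-fold in WT. The region from 170018492 to 170020224 over Erdr1 had 7.68 and 4.86-fold in KO and 10.6 and 5.48-fold in WT. Its KO replicates differed by more than their distance to WT replicate 2. The neighbour from 170017295 to 170017792 had 3.44 and 5.01-fold in KO and 10.6 and 9.46-fold in WT, so both KO values were below both WT values. Each of these WT values belongs to 1 long peak, of 7.45 kb in replicate 1 and 4.66 kb in replicate 2. The peak of WT replicate 1 spans both neighbouring regions, so its 10.6-fold is 1 value and need not lie at either site.

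Chromosome 8 held 2 of the clusters side by side. From 123542399 to 123617689, 9 regions lay among 42 annotated ribosomal RNA genes, the repeated array that encodes 5S ribosomal RNA. WT replicates had 67 and 68 peaks in the array, whereas KO had 5 and 4, and 0 of the 9 regions was found in both KO lists. Over the 9 regions alone, not over all peaks of the array, median enrichment was 3.35 and 3.26-fold in KO and 4.07 and 3.86-fold in WT. The other cluster, from 123425887 to 123434240, lay 3871 bp from Tubb3, a neuronal tubulin gene, and outside annotated genes. There, 8 regions, 5 of them in both KO lists, fell under 1 long peak in each WT list. Its median enrichment was 2.81-fold in both KO lists and 4.70 and 4.95-fold in WT.

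Chromosome 10 from 3109516 to 3117038 held 8 regions outside annotated genes, 7 of them in both KO lists, nearest to the pseudogene Gm30674 at 4673 bp. KO was not uniformly below WT here, with medians of 3.12 and 3.53-fold in KO and 3.05 and 2.79-fold in WT. The region from 3109906 to 3110386 had 3.17 and 4.93-fold in KO and 3.04 and 2.70-fold in WT, so both KO values exceeded both WT values. From 3114482 to 3114687, KO replicate 2 had 5.53-fold and WT had 3.41 and 3.88-fold, with no peak in KO replicate 1. From 3112611 to 3112964, enrichment was 2.61 and 3.60-fold in KO and 3.15 and 2.76-fold in WT, and from 3116150 to 3117038 it was 2.02 and 3.46-fold in KO and 2.59 and 2.42-fold in WT. In both of these, KO replicate 1 was below both WT values and KO replicate 2 above them. The cluster on chromosome 9 from 123927596 to 123937160, at the noncoding gene Gm51701, held 8 regions, 5 in both KO lists, at medians of 2.69 and 2.92-fold in KO and 4.81 and 3.08-fold in WT. On chromosome 10 from 58223229 to 58232202, 6 regions lay over Duxf3, Gm10807 and LOC100504180. Duxf3 belongs to the repeated Dux genes, which encode activators of the 2-cell-stage programme, and the medians there were 2.40 and 2.34-fold in KO and 3.54 and 2.76-fold in WT. Order between KO and WT thus differed from cluster to cluster, which was not tested with 2 libraries each.

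**Figure D4:**
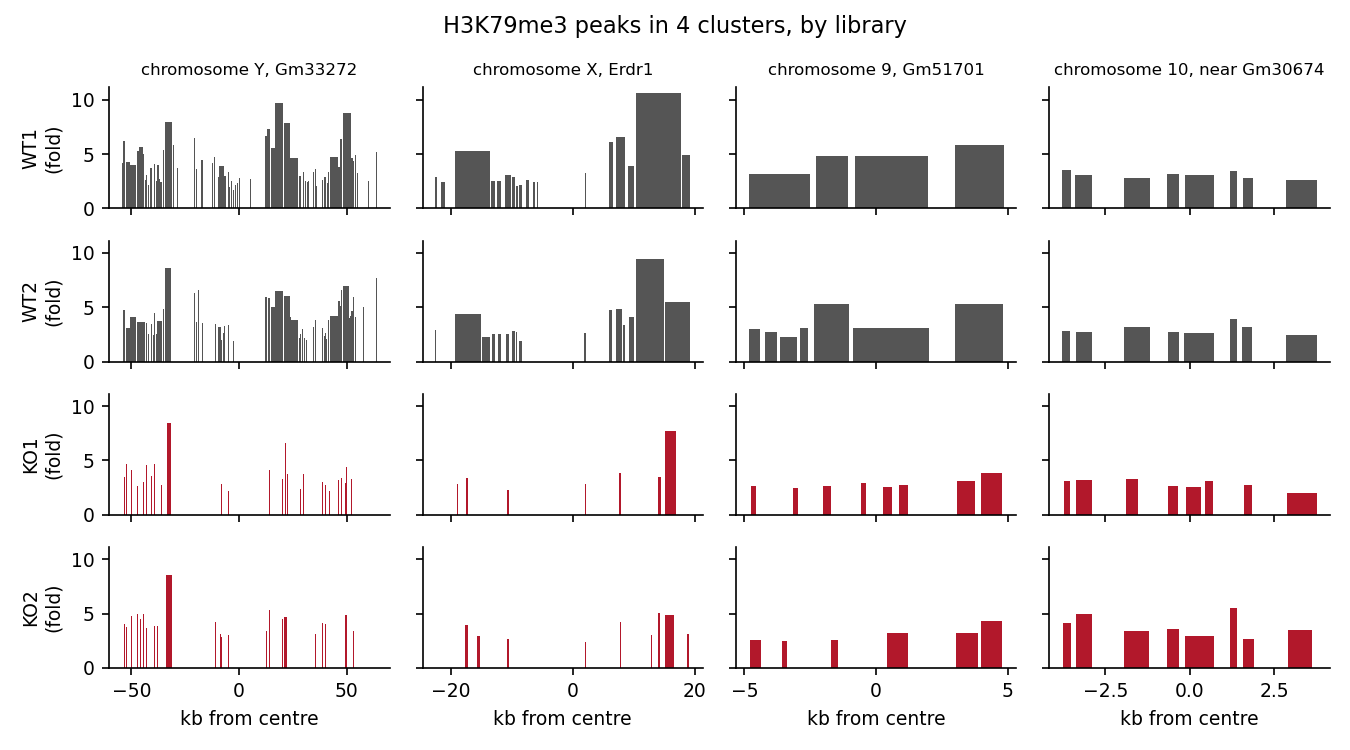
Bars are H3K79me3 peaks of the 4 libraries (rows) in 4 of the clusters (columns), with their enrichment (vertical axis, fold) against the distance from the cluster's centre (horizontal axis, kb). KO peaks fall under WT peaks, and the highest KO bar, 8.58-fold on chromosome Y, stands where both WT libraries have one of 7.92 and 8.65-fold.

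Clusters of 2 to 4 regions numbered 32, with 80 regions, of which 65.0% lay in a gene body and 13 were in both KO lists. Tmem267 held 3 regions, of which the one on chromosome 13 from 119601314 to 119601584 had 3.54 and 3.63-fold in KO and 4.73 and 4.20-fold in WT. Sfi1, a centrosome gene, held 3 regions at 2.04 to 2.27-fold in KO, all with WT values of 3.61 and 3.04-fold. Gm20590, a pseudogene on chromosome 13, held 4 regions, among them 3 of the 5 with the lowest enrichment. Polrmt, the RNA polymerase of mitochondria, held 3 regions. The one from 79740036 to 79740315 on chromosome 10 had 5.73 and 4.94-fold in KO and 3.71 and 4.75-fold in WT, so KO was above both WT values. Ezr held 4 regions, and Kbtbd11, Rlf and Zfp703 held 3 each, none in both KO lists.

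Of the 10 regions that stood alone and were in both KO lists, 0 had both KO values above both WT values. Under the Rasd2 start, enrichment was 4.92 and 4.68-fold in KO and 8.45 and 5.08-fold in WT. Inside Thegl it was 5.67 and 4.38-fold in KO and 5.68 and 4.68-fold in WT. Inside Slc38a1, an amino acid transporter gene, it was 4.86 and 3.98-fold in KO and 5.60 and 9.02-fold in WT. Outside genes on chromosome 12 from 22043112 to 22043345, 12216 bp from Gm9282, it was 4.51 and 4.74-fold in KO and 5.08 and 5.07-fold in WT. In these 4 both KO values lay below the higher WT value.

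Regions without a WT peak were single calls. The highest, on chromosome 15 from 55160662 to 55160849 inside Deptor, an inhibitor of the kinase mTOR, had 7.79-fold with a −log10 q of 13.8 in KO replicate 1 alone. Next came chromosome 13 from 60442463 to 60442659, 7702 bp from Gm35333, with 6.32-fold in KO replicate 2. Others lay inside Cwc27 with 5.67-fold in replicate 1 and inside Csmd1 with 5.66-fold in replicate 2. None was seen in the other KO list.

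Regions near a start site came mostly from KO replicate 2. The summit lay within 1 kb of a RefSeq start in 51 of 259 regions found in KO replicate 2 alone (19.7%, Wilson 95% interval 15.3 to 25.0%), in 8 of 111 found in replicate 1 alone (7.21%, 3.70 to 13.6%) and in 4 of 63 found in both (6.35%, 2.50 to 15.2%). WT H3K79me3 peaks gave 15.7% and 13.1%. Among all 63 regions with such a summit were, named after their positions were seen, those at starts of Hoxa13, Hoxd13, Gsc, Cdx2, Mnx1, Foxl2 and Nkx2-4, which encode transcription factors of development. Hoxd13 had 325 bp between summit and start and Cdx2 had 669 bp. Whether such genes are more frequent than others was not tested.

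By chromosome, the regions were uneven. Chromosome 8 held 65 of them (14.8%), against 7.74% and 9.23% of the WT H3K79me3 peaks and 4.75% of the annotated length. Without the 17 regions in its large clusters, it still held 13.4% of the regions outside such clusters. Chromosome Y held 34 (7.74%), against 0.712% and 1.01% of the WT H3K79me3 peaks, and 32 of the 34 were the cluster above. In RNA, 54.9% of the 805 genes of chromosome 8 with at least 1 CPM were higher in KO, beside 49.3% over all chromosomes, and chromosome 15, with 2.73% of the regions, had the same 54.9%. These shares count direction alone, without a test. On chromosome Y, 100% of 10 such genes were lower in KO, and on X 88.4% of 596. Of the listed genes, Ddx3y stood at 88.5, 90.1 and 89.3 CPM in WT and at 32.3 and 38.0 CPM in KO (log2 fold change −1.34, SE 0.06, edgeR adjusted p = 4.36e-09), while Eif2s3y stood at 68.1, 75.0 and 66.8 and at 62.3 and 62.8 CPM (−0.16, SE 0.06, adjusted p = 0.0306). Both were lower in KO, to different degrees, and Y was transcribed in every library. The part of chromosome copy number in the regions was not tested.

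Genes under the regions were next examined in RNA, which asked whether transcripts there changed without Dot1L. Gene bodies covered 256 of the 439 regions (58.3%, Wilson 95% interval 53.6 to 62.8%), and the other 183 lay 25 to 424707 bp from the nearest gene, with a median of 9770 bp. The 256 regions lay over 243 genes, 200 of them protein-coding. Of the 243, 200 matched the RNA table by symbol, 181 passed the filter on low counts and 43 had no match, Erdr1, Gm33272, Gm51701 and the ribosomal gene n-R5s117 among them. Called by edgeR's quasi-likelihood test at an adjusted p under 0.05 were 101 of the 181 (55.8%), beside 43.9% of all 19532 genes tested. Higher in KO were 51 (28.2%), beside 22.3% of all genes, and lower were 50 (27.6%), beside 21.6%. The median log2 fold change was 0.09, against 0.00 over all genes. Genes over a WT H3K79me3 peak but no region were called in 54.6% of cases, close to the share of the members, with 22.8% higher and 31.8% lower. Their median level was 51.7 CPM against 6.65 CPM for the members, so the 2 shares are not a like comparison. At a mean of at least 1 CPM, 59.9% of the members were called, beside 48.5% of all genes tested. In bulk RNA, fewer cells of a type and less RNA per cell cannot be told apart.

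Genes under regions of both KO lists were few, with 12 tested, of which 5 were called higher and 5 lower. Among the 14 tested genes with a region on their start window, 5 were higher and 1 was lower. Among the 13 tested genes over a region with H3K79me2 in WT, 1 was higher and 8 were lower, with a median of −0.26. Over all genes tested, 22.3% were higher and 21.6% lower. These subsets overlap one another, and no test was made of them.

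The falls were led by zinc-finger genes of 1 stretch of chromosome 4. This stretch was chosen after its values were seen. Between 145447052 and 147489816 lay 13 regions, none in both KO lists and 9 with a WT H3K79me3 peak. Of the 8 tested genes over them, 6 were called lower and 0 higher, beside 21.6% and 22.3% of all genes tested. Zfp600 stood at 231, 254 and 235 CPM in WT and at 49.1 and 55.3 CPM in KO, a log2 fold change of −2.20 (SE 0.06, edgeR adjusted p = 8.53e-11). Zfp978, with 2 regions, stood at 158, 167 and 163 CPM in WT and at 35.1 and 41.4 CPM in KO (log2 fold change −2.09, SE 0.07). The groups of both genes were far apart. Zfp982 and the pseudogene Znf41-ps fell by 1.43 and 1.40 on the log2 scale. These genes belong to a family of near-identical copies, so the counts of single members and the placing of peaks among them are uncertain.

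Mid1 on X, under 3 regions of the X cluster, stood at 897, 888 and 933 CPM in WT and at 389 and 394 CPM in KO (log2 fold change −1.21, SE 0.04, edgeR adjusted p = 1.95e-10). Its copy on Y, the pseudogene Mid1-ps1, under 3 regions of the Y cluster, stood at 4.13, 4.83 and 3.83 CPM in WT and at 1.55 and 1.76 CPM in KO (−1.37, SE 0.18). Both fell along with most genes of their chromosomes. Elsewhere, Pkd1l2 fell by 1.51 and Zfp640 by 1.22 on the log2 scale, each with 1 region of KO replicate 2.

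Among genes higher in KO, Gata6, a transcription factor of primitive endoderm, stood at 0.471, 0.769 and 0.766 CPM in WT and at 4.14 and 3.51 CPM in KO. Its log2 fold change was 2.50 (SE 0.22, edgeR adjusted p = 1.42e-06), and the groups did not overlap. The region, on chromosome 18 from 11054553 to 11054941, had 6.18-fold in KO replicate 2 and 3.71-fold in WT replicate 1, with no peak in the other lists. Sox17 and Pdgfra, also primitive endoderm markers, were called higher and Gata4 was not, beside 22.3% of all genes called higher. Ntn1, a guidance cue, stood at 16.0, 13.6 and 15.0 CPM in WT and at 36.4 and 37.9 CPM in KO (log2 fold change 1.33, SE 0.07). Tmem267 stood at 3.19, 3.57 and 3.97 CPM in WT and at 9.38 and 9.59 CPM in KO (1.41, SE 0.12). Both were higher in each KO library than in any WT library.

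Atp1b2, a subunit of the sodium pump, had a log2 fold change of 1.60 (SE 0.08) and Hspa2, a heat shock protein, of 1.15 (SE 0.13). Dll1, a Notch ligand, stood at 2.75, 3.32 and 3.48 CPM in WT and at 8.29 and 5.14 CPM in KO (1.07, SE 0.19). Pdgfb and Myrip each had 1.03, Fbxo41 had 0.90 and Fzd1, a Wnt receptor, had 0.84. Of these 10 risen genes, 9 had regions from KO replicate 2 alone, Tmem267 being the exception with regions in both lists. Most regions over gene bodies, 178 of 256, were likewise from KO replicate 2 alone. The regions at Hspa2 and Fbxo41 had no WT H3K79me3 peak. Duxf3, of the cluster on chromosome 10, stood at 0.217, 0.400 and 0.383 CPM in WT and at 0.632 and 0.878 CPM in KO, a log2 fold change of 1.16 (SE 0.37, edgeR adjusted p = 0.0234). DESeq2 gave Duxf3 an adjusted p of 0.166, and edgeR gave 0.0687 without WT replicate 1 and 0.195 without KO replicate 2. Reads of its near-identical copies cannot be told apart with certainty. The adjusted p of Myrip was 0.0556 in edgeR without KO replicate 1.

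Genes of the printed windows moved in no common direction, and those other than Rasd2 were named after their values were seen. Wnt7a stood at 0.0362, 0.184 and 0.174 CPM in WT and at 0.632 and 0.618 CPM in KO (log2 fold change 2.18, SE 0.50), at very low counts. Rasd2 stood at 8.73, 8.15 and 7.87 CPM in WT and at 10.5 and 9.43 CPM in KO (log2 fold change 0.27, SE 0.10, edgeR adjusted p = 0.0359), a call that DESeq2 did not make, with an adjusted p of 0.207. In edgeR that call was also lost without WT replicate 2 (adjusted p = 0.0935), WT replicate 3 (0.108) or KO replicate 1 (0.216). Ptch1 stood at 144, 140 and 145 CPM in WT and at 106 and 93.8 CPM in KO (−0.51, SE 0.05). Vmn2r29 stood at 1.45, 0.830 and 0.975 CPM and at 1.19 and 0.780 CPM, where the groups overlapped. Pcgf5, a Polycomb gene with a region on its start and also named after its values were seen, stood at 20.3, 22.2 and 20.5 CPM in WT and at 34.8 and 32.7 CPM in KO (0.68, SE 0.06). Of the other named genes, Slc38a1, Zfp445 and Deptor had log2 fold changes of −0.72, −0.26 and −0.22, Polrmt had 0.31, and Cwc27, Csmd1 and Slc35d3 were not called.

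**Figure D5:**
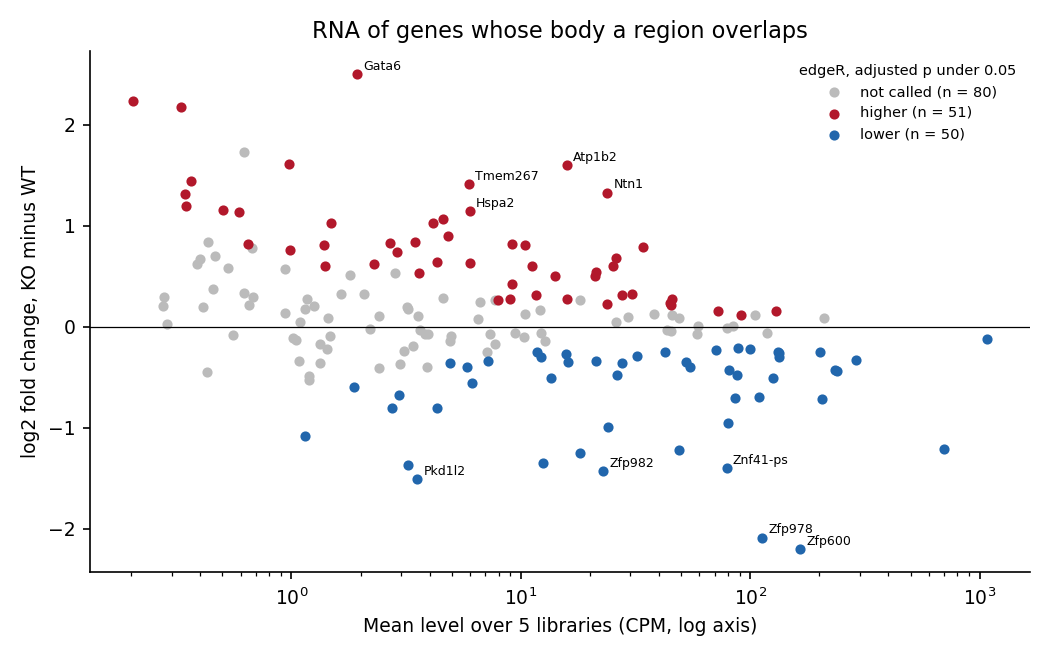
Each point is 1 of the 181 tested genes whose body a region overlaps, with its mean level over 5 libraries (horizontal axis, CPM, log scale) and its log2 fold change, KO minus WT (vertical axis). The 51 genes called higher and the 50 called lower lie on both sides of 0, with Gata6 at 2.50 and Zfp600 at −2.20 at the ends among genes of at least 1 CPM.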

How the data were processed

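Per the submitters' processing notes, ChIP reads were processed with Bowtie2 and MACS2 on mm10 and mESC RNA with kallisto, while STAR and HTSeq are also named for 4 of the 5 libraries; versions, control, thresholds, peak settings and handling of repeated sequence are not given in the sources used here. The authors deposited 1 peak list per library with the enrichment ratio (fold over background), the −log10 q and the summit offset of each peak. The RNA table that the authors deposited holds estimated counts per gene, not normalized, read as kallisto output because they are not whole. They were rounded to whole numbers here.

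Members and lists were chosen with earlier results of these data known. Peaks were merged at an overlap of 1 bp, and a region took the highest peak of each list. Clusters were chains with gaps of at most 100 kb. Genes and start windows came from RefSeq on GRCm38.p6, the patch level of mm10. RNA was fitted with edgeR 4.0.16 (filterByExpr, TMM, quasi-likelihood F test, Benjamini-Hochberg over all genes) in R 4.3.3, 3 WT against 2 KO, with DESeq2 1.42.0 as an alternative. Counts without a gene symbol were at most 0.0163% of a library. Functions for overlaps and the RNA fit were tested on simulated data. Named regions were the 10 of highest −log10 q, up to 15 of both KO lists by minimum enrichment, clusters of at least 5, 5 without a WT peak and the 5 of lowest enrichment. Named genes were those over them and, at a mean of at least 1 CPM, the 10 called higher and 10 called lower by size of log2 fold change. Some items that the rule names are not reported here. Start windows of chromosome 18 are not in the table. Replicate RNA libraries differed by more than sampling noise, with a chi-square per gene from 2.41 to 5.53. Alternatives covered merging, thresholds, overlap, single lists, scaling, tool and filters. The embryo libraries were not used here, and input libraries were not analysed here.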

Additional observations from a re-analysis of the deposited data

How the results depend on the processing

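The share of regions over a WT H3K79me2 peak stayed within its interval under each alternative run, at 3.19 to 5.62%. The share over a WT H3K79me3 peak was 85.9% at an overlap of 50%, 55.8% with both WT lists required and 84.1% outside clusters of 5 or more regions (chosen after seeing the data). It ran from 58.3 to 94.9% when 1 KO or WT list was left out, lowest without WT replicate 1. The share within 100 kb of another was 23.4% with merging within 1 kb, 30.4% on autosomes and 55.8% at 1000 kb, and 35.7 to 47.2% without 1 KO list. The share in gene bodies was 64.7% with bodies extended by 2 kb, 50.8% for protein-coding genes and 64.8% outside the large clusters (chosen after seeing the data), and 43.8 to 61.9% without 1 KO list. There were 178 to 328 regions without 1 KO list, and 41 regions in both lists on autosomes. Median KO enrichment was 4.11 to 4.45-fold without 1 KO list, and median WT enrichment was 4.47-fold as a length-weighted mean.

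Genes called among those over regions numbered 10 for regions of both KO lists alone. The other alternatives gave 74 (DESeq2) to 109 (genes within 2 kb of a region), beside 101, and 83 to 100 without 1 RNA library; a lone KO library was then assumed to vary like the WT group. The replicate number as a block gave 94 genes, 91 of them shared in call and direction; same-numbered libraries' deviations correlated at 0.0216 and −0.0107, so the numbers did not pair them. Of 318 fits of 29 named genes, 0 reversed and 9 lost a call, in Duxf3, Myrip and Rasd2; Rasd2 had an adjusted p of 0.0833 under the block. Upper-quartile scaling called 61 higher and 43 lower.

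Peak lists without read counts do not show whether a site without a call lacked signal, and differences between 2 WT and 2 KO lists were not tested.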
